A study of Mus musculus with 4 samples.

Results

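The structural genes of the neuronal microtubule and neurofilament cytoskeleton were followed in cytoplasmic RNA of Neuro2A, a line of mouse neuroblastoma cells, with and without 4.5SH. 4.5SH is a short rodent RNA that is not translated and resembles B1 repeats in sequence. The 10 genes were Map2, Mapt, Map1b, Tubb3, Stmn2, Stmn3, Dcx, Nefl, Nefm and Ina, taken by name, and their members were all probe sets that the array annotation assigns to 1 of these symbols alone. There were 26 such probe sets among 34945 with 1 gene symbol and 45101 on the array. Of the 26, 15 from 7 genes were bright enough to be tested, and 11 from 5 genes were not. Dcx, Nefl and Nefm had no tested probe set.

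The study compared 2 groups of 2 biological replicates, to find genes whose cytoplasmic RNA responds to 4.5SH. The knockdown cells are labelled as depleted of endogenous 4.5SH and the control cells only as control. Per the labels, cells were transfected with antisense oligonucleotides at 30 nM by lipofection, and the oligonucleotide of the control cells was not given in the sources used here. RNA was taken from the supernatant of a detergent lysate, and the nuclear pellet and 4.5SH itself were not analysed here. Loss of 4.5SH and any other action of the oligonucleotides cannot be told apart. Neuro2A is a single tumour line of dividing cells. Whether the replicates came from separate transfections is not stated, so p-values measure only the spread between these samples.

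Microtubules are polymers of alpha and beta tubulin that carry transport along axons and dendrites. Proteins of the MAP2, tau and MAP1 families bind and stabilise the polymer, with MAP2 found mostly in dendrites and tau mostly in axons, while stathmins bind free tubulin dimers and favour disassembly. Neurofilaments are the intermediate filaments of neurons and set the calibre of axons. In neuroblastoma lines these genes serve as markers of neuronal differentiation.

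The group moved in both directions. Map2 and Map1b rose in the knockdown, and so did 1 of 3 probe sets of Ina, which encodes the neurofilament subunit alpha-internexin. Mapt, the tau gene, fell at 3 of 4 probe sets, and the stathmin genes Stmn2 and Stmn3 fell by small amounts. Tubb3, the neuronal beta tubulin, did not pass the test. A value passed when its Benjamini-Hochberg adjusted p from limma, a linear model that shares variance across probe sets, was under 0.05 over all 22519 tested probe sets. Of the 15 tested member probe sets 4 rose, 6 fell and 5 did not pass. Over all tested probe sets 9.73% were higher and 25.8% lower. How the members divided turned with the scale used. Quantile scaling gave 6 higher members and 4 lower ones, as did centring on the tested probe sets, whereas spike-in scaling gave 4 higher and 8 lower. The members' median log2 difference was -0.14, beside -0.11 for all tested probe sets. It was 0.023 with quantile scaling, -0.0097 with centring on the tested probe sets and -0.25 with spike-in scaling. Signals of the groups did not overlap in 13 of the 15 probe sets, whereas 66.8% of all tested probe sets had no overlap. Counted once per gene by the brightest probe set, 2 of 7 genes rose (Map2 and Map1b) and 3 fell (Mapt, Stmn2 and Stmn3), beside 9.83% higher and 35.2% lower among 11804 tested genes. Values are MAS5 signals, a linear brightness per probe set. Differences are on the log2(signal + 16) scale, knockdown minus control, with the standard error of the fit after ±. The added 16 makes a difference smaller for dim probe sets.

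**Figure D1:**
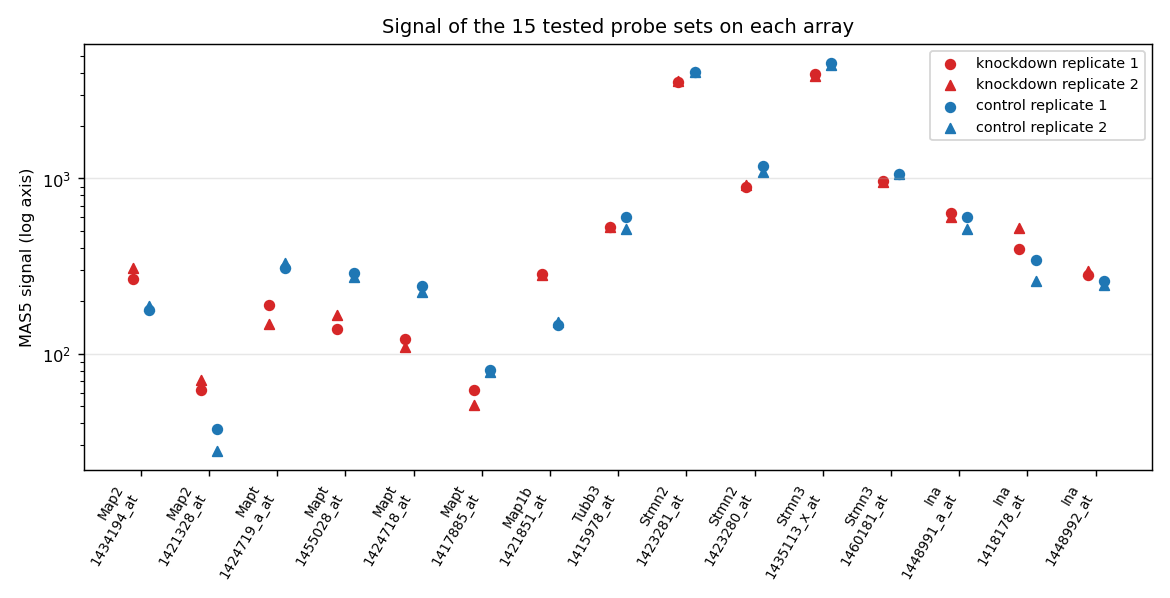
Signal of each tested member probe set (log axis) on the 4 arrays, with knockdown in red, control in blue, circles for replicate 1 and triangles for replicate 2. The red points lie above the blue ones for Map2, Map1b, Ina 1418178_at and Ina 1448992_at, and below them for Mapt and the stathmins. They lie among the blue ones for Tubb3 and overlap them for Ina 1448991_a_at.

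Some facts of the arrays bear on all these values. The mean signal after trimming 2% at each end was 128 and 132 in the knockdown against 149 and 143 in the control, and no source states a scaling to 1 target. With quantile scaling, which gives the arrays 1 distribution, the median difference of all tested probe sets went from -0.11 to -0.00047, and with scaling to 9 spike-in probe sets to -0.22. The calls over all tested probe sets went from 2192 higher and 5810 lower to 3816 and 3748 with quantile scaling, and to 1307 and 7751 with spike-in scaling. The ratio of 3' to 5' signal was 0.787 to 0.833 in the knockdown against 0.861 to 0.884 in the control for Gapdh, and 2.47 to 2.49 against 2.60 to 2.78 for Actb. Its part in the differences was not tested. An exact permutation test of 2 arrays against 2 reaches 0.333 at the least, so each p rests on the variance shared across probe sets. Precision is limited by having 4 arrays.

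The labelled cell type was checked against marker genes. The sympathetic neuroblast regulators Hand2 and Phox2a, and Chgb, a protein of dense-core granules, were bright, with means over the 4 arrays of 1514, 1164 and 1038. The catecholamine enzymes Th and Dbh, markers of the same lineage, were dim, at 16.2 and 21.2, as was the regulator Gata3. Of 19 tested neuroblast probe sets 4 were higher and 4 lower, beside 9.73% and 25.8% of all tested probe sets. Chgb was higher by 0.33 and Phox2a was at -0.23 at the brightest probe set. Of 10 glial genes on the array none had a probe set with a mean above 33.2, and the myelin and oligodendrocyte genes Mog, Olig1 and Olig2 were at 1.45, 4.18 and 4.50. The summed signal of the 30 glial probe sets was 233.7 and 278.0 in the knockdown against 283.1 and 362.6 in the control. Of its 7 tested probe sets 1, for Sox10, was higher and 1, for Mbp, lower, both named after their values were seen. Microglial markers had 9 probe sets, 3 of them tested and none called, with sums of 149.9 and 151.7 against 202.0 and 185.3. Fibroblast and endothelial markers had 11 probe sets, 2 of them tested, with sums of 153.8 and 189.5 against 262.9 and 237.2. The endothelial gene Pecam1 fell by 0.88 on the log2 scale, from 154.2 and 118.3 to 63.1 and 69.7. The other tested probe set, for Dcn, read 50.8 and 36.6 in the knockdown against 33.6 and 35.7 in the control. Its difference of 0.23 did not pass. The summed signals of these 3 lists were thus lower in the knockdown. So was the sum of the neuroblast list, at 6342.6 and 6467.8 against 6656.5 and 6715 in the control, and so was the trimmed mean of the arrays. The part of these lists in the results was not tested. In these bulk samples fewer cells of a type and less RNA per cell cannot be told apart.

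The windows upstream of genes that moved were set side by side, because Map2 and Map1b rose together while Stmn3 fell. RefSeq promoter windows on GRCm38.p6 were found for 6 of the 10 genes. The 250 bases before a gene start are shown 5′ to 3′ on the gene's strand, at chr13:99516603-99516852 (minus strand) for Map1b and chr2:181314501-181314750 (minus strand) for Stmn3. For Map2 (plus strand) 123 bases at chr1:66175079-66175201 are shown, the part outside the annotated gene. Capitals mark GGGCGG, the core of the GC box, and TATAAA, the TATA box, searched on both strands.
Map2: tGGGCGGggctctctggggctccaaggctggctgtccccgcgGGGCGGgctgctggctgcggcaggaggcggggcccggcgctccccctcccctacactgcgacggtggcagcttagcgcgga
Map1b: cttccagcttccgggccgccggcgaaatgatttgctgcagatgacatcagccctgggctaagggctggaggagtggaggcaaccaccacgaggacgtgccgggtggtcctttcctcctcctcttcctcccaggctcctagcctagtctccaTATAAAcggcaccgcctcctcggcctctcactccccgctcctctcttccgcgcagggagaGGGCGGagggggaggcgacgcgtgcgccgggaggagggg
Stmn3: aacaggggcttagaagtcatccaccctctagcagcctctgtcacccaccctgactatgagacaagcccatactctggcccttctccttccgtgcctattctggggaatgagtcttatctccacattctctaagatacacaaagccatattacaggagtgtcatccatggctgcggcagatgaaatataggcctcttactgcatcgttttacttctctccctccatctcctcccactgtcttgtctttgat

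The whole Map2 window of 250 bases, which runs into the annotated gene, held 5 GC boxes. Of these 2 lay in the part shown, outside the gene. The windows of Map1b and Stmn3, wholly outside their genes, held 1 and none. Ina and Tubb3, whose windows are not shown, held 2 each. GC boxes occurred in 32.7% of all 32851 windows of this length, and TATAAA, present for Map1b but not for Map2 or Stmn3, in 12.4%. The G and C content was 81.2% for the whole Map2 window, 66.4% for Map1b and 48.8% for Stmn3. It was 68% for Tubb3, which did not pass the test, and 70.8% for Ina. These shares stand beside a median of 52.4% over all windows. The windows of Dcx, which had no tested probe set, lay partly or wholly inside the annotated gene. Their G and C content was 41.6% and 44.8%, with 0 GC boxes and 1 TATAAA each. Among genes called lower only Stmn3 had a window, with none found for Mapt or Stmn2. Any link of this content with the direction of change was not tested. These matches describe the letters of the windows and no measured binding.

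Map2 encodes the main dendritic microtubule-associated protein (chromosome 1, 66175202 to 66442583). Its brightest probe set, 1434194_at, read 265.6 and 308.5 in the knockdown against 178.4 and 186.0 in the control. Both knockdown arrays were above both control arrays, with means of 287 ± 30.3 and 182 ± 5.37 (SD, n = 2). The log2 difference was 0.61 ± 0.11 (adjusted p = 0.000763, limma).

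The second tested Map2 probe set, 1421328_at, was dimmer, at 62.1 and 70.4 against 37.3 and 27.9. It rose by 0.76 ± 0.18 (adjusted p = 0.00529, limma), again without overlap, but without knockdown replicate 2 the difference was 0.69 and the call was lost (adjusted p = 0.0550, limma), as it was with no filter (adjusted p = 0.0618, limma). Below the filter, 1440699_at read 17.0 and 13.3 against 3.5 and 7.2, also without overlap. At 1421327_at the values were 2.2 and 21.2 against 2.5 and 8.7, so the 2 knockdown arrays enclosed the control ones.

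Mapt encodes tau, the axonal relative of MAP2 (chromosome 11, 104229409 to 104332090), and all 4 of its probe sets were tested. At 1424719_a_at the signal was 189.0 and 146.9 in the knockdown against 308.4 and 329.3 in the control. At 1424718_at it was 121.2 and 109.5 against 244.1 and 224.9. At 1455028_at it was 139.1 and 165.4 against 289.1 and 272.3. In each case both knockdown arrays lay well below both control arrays, and the mean knockdown signal was 0.527, 0.492 and 0.542 times the control mean.

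The log2 differences at these 3 probe sets were -0.87 ± 0.12 (adjusted p = 9.58e-05), -0.93 ± 0.12 (adjusted p = 4.70e-05) and -0.82 ± 0.12 (adjusted p = 0.000103) by limma. The first pair carries the same sequence accession in the annotation, so they are not independent readings. The dimmest, 1417885_at, read 61.8 and 51.0 against 80.6 and 78.4. It did not overlap either but did not pass, at -0.40 ± 0.16 (adjusted p = 0.0664, limma). With spike-in scaling it passed (-0.51, adjusted p = 0.0202, limma). As the mean of its probe sets Mapt differed by -0.76 ± 0.10. Map2 and Mapt, 2 members of 1 protein family, thus had intervals of difference on opposite sides of 0. These were 0.37 to 0.85 at the brightest Map2 probe set and -1.14 to -0.61 at the brightest Mapt one (95% intervals, limma).

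Map1b encodes a microtubule-associated protein of growing axons (chromosome 13, 99421464 to 99516602). Its bright probe set, 1421851_at, read 286.5 and 282.2 in the knockdown against 145.1 and 151.5 in the control. The replicates lay close together, and the groups were well apart, at 284 ± 3.04 and 148 ± 4.53 (SD, n = 2). The rise was 0.87 ± 0.11 (adjusted p = 3.46e-05, limma).

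The other 2 Map1b probe sets, which carry the same accession, were dim and not tested. At 1450397_at the signal was 29.7 and 17.5 against 3.3 and 6.5, with no overlap. At 1421850_at it was 18.5 and 17.9 against 6.6 and 21.8, and here the control arrays enclosed the knockdown ones.

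**Figure D2:**
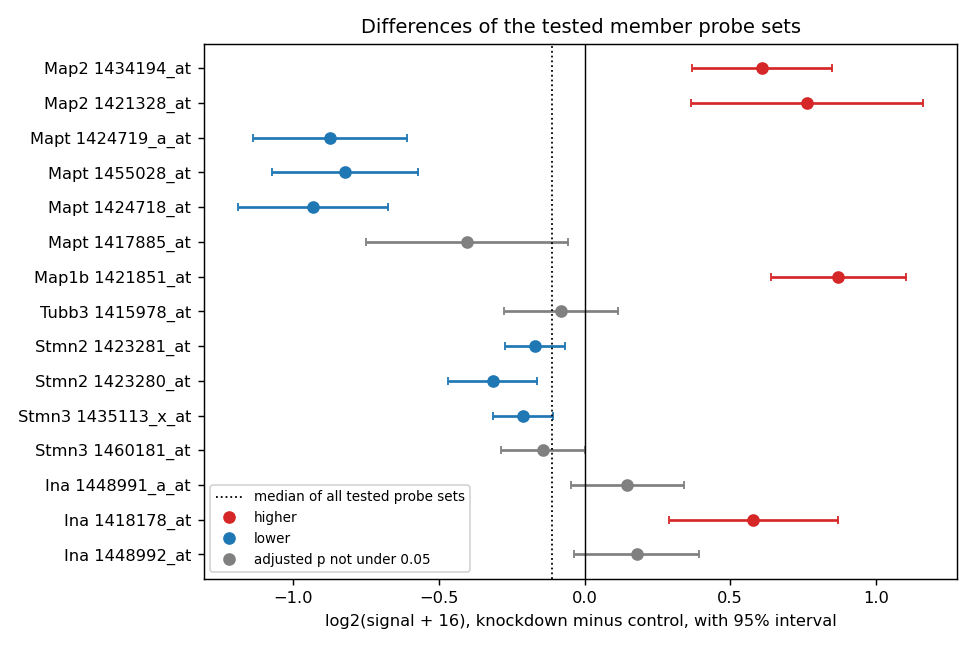
Log2 difference of each tested member probe set, knockdown minus control, with its 95% interval from limma; red marks a rise, blue a fall and grey an adjusted p not under 0.05, and the dotted line is the median of all tested probe sets. Mapt lies between -0.93 and -0.40, the stathmins between -0.32 and -0.14, and Map2 and Map1b between 0.61 and 0.87.

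Tubb3 encodes the beta tubulin used as a marker of neurons (chromosome 8, 123411553 to 123422015). Its only probe set, 1415978_at, read 526.3 and 526.8 in the knockdown against 604.6 and 514.6 in the control. The control arrays enclosed the knockdown ones. The difference of -0.08 ± 0.09 did not pass (adjusted p = 0.530, limma), with a 95% interval from -0.28 to 0.11. Its sign turned with quantile scaling (0.11) and with arrays centred on the tested probe sets (0.05), and without control replicate 1 (0.03).

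Stmn2 encodes a stathmin of growth cones (chromosome 3, 8509527 to 8561604). At its bright probe set, 1423281_at, the signal was 3571.3 and 3603.5 in the knockdown against 4038.4 and 4030.5 in the control. At 1423280_at, which has the same accession, it was 895.9 and 923.6 against 1182.4 and 1091.2. The groups did not overlap at either, and the falls were small beside those of Mapt, at -0.17 ± 0.05 (adjusted p = 0.0137, limma) and -0.32 ± 0.07 (adjusted p = 0.00332, limma).

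Stmn3 encodes a related neuronal stathmin (chromosome 2, 181306459 to 181314500). Its bright probe set, 1435113_x_at, whose suffix marks probes that may also match other transcripts, read 3925.8 and 3842.3 against 4542.4 and 4451.8. It fell by 0.21 ± 0.05 on the log2 scale (adjusted p = 0.00338, limma). At 1460181_at the signal was 966.5 and 952.0 against 1065.7 and 1054.9, without overlap, and the difference of -0.14 ± 0.07 did not pass (adjusted p = 0.120, limma).

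These stathmin calls depended on the scale and on the variance model. With quantile scaling the differences of the 4 probe sets were -0.07, -0.15, -0.12 and 0.02 in the order above, and of these only 1435113_x_at still passed (adjusted p = 0.0369, limma). After centring on the tested probe sets only 1423280_at passed (-0.18, adjusted p = 0.0351, limma). With spike-in scaling all 4 passed as lower, at -0.28, -0.43, -0.32 and -0.25 (adjusted p = 0.00444, 0.000564, 0.00119 and 0.0233, limma). Without knockdown replicate 1 or without knockdown replicate 2 the call at 1423281_at was lost (adjusted p = 0.0823 and 0.0625, limma), as it was with no filter (adjusted p = 0.0688, limma). With no intensity trend all 3 stathmin calls were lost (adjusted p = 0.224, 0.0754 and 0.152, limma).

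Ina encodes alpha-internexin, which assembles with the neurofilament triplet proteins (chromosome 19, 47014681 to 47025327), and its 3 probe sets share an accession. At 1418178_at the signal was 394.9 and 518.9 in the knockdown against 340.3 and 260.2 in the control. The groups did not overlap, although both were widely spread. The rise was 0.58 ± 0.14 (adjusted p = 0.00420, limma). Without knockdown replicate 2 it was 0.39 and did not pass (adjusted p = 0.0757, limma), nor did it with no filter or no intensity trend (adjusted p = 0.0734 and 0.0857, limma).

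At 1448991_a_at Ina read 636.8 and 601.1 against 602.9 and 515.5, and the groups overlapped. The difference was 0.15 ± 0.09 (adjusted p = 0.233, limma). At 1448992_at the values were 282.7 and 297.3 against 260.8 and 247.9, without overlap. The difference there was 0.18 ± 0.10 and did not pass (adjusted p = 0.189, limma). Both passed with quantile scaling, at 0.34 and 0.36 (adjusted p = 0.00856 and 0.00916, limma). So they did after centring on the tested probe sets, at 0.28 and 0.31 (adjusted p = 0.0208 and 0.0163, limma). With spike-in scaling neither passed, at 0.035 and 0.068 (adjusted p = 0.792 and 0.658, limma). The mean of the 3 probe sets was 0.30 ± 0.09 (adjusted p = 0.0180, limma), so Ina passed as a mean but not by its brightest probe set.

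**Figure D3:**
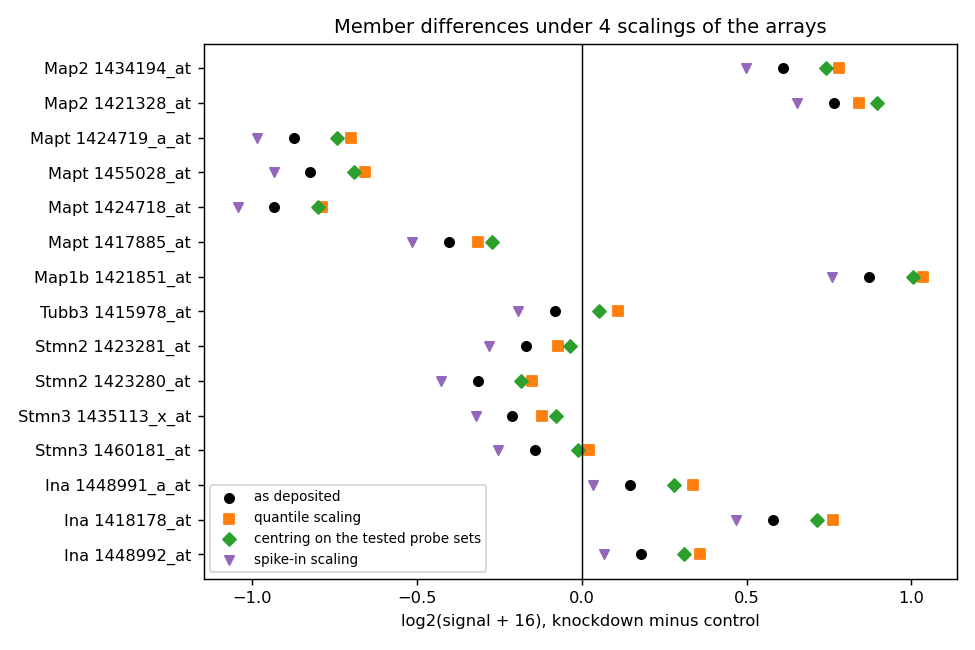
Log2 difference of the tested member probe sets, knockdown minus control, under the deposited scale and 3 other scalings of the arrays. Map2, Map1b and Ina stay above 0 and Mapt below 0 under these scalings, while Tubb3 and Stmn3 1460181_at lie on both sides of 0.

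The remaining neurofilament genes and Dcx were dim on every array. Nefl encodes the light neurofilament chain (chromosome 14, 68083863 to 68089095). It read 18.1 and 18.1 in the knockdown against 12.5 and 15.8 in the control at 1426255_at, and 15.3 and 14 against 10.8 and 11.6 at 1454672_at. The knockdown arrays were above the control ones at both probe sets, with differences of 0.18 and 0.17 that were not tested. Nefm, the medium chain (chromosome 14, 68119545 to 68125004), read 12.6 and 18.0 against 19.3 and 7.4 at its only probe set, 1422520_at, and the groups overlapped.

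Dcx encodes doublecortin, a microtubule binder of migrating neuroblasts (X chromosome, 143855842 to 143933396). At its brightest probe set, 1448974_at, the signal was 2.8 and 13.7 in the knockdown against 3.1 and 14 in the control. The other 3 Dcx probe sets lay between 0.4 and 16.3. All 4 Dcx probe sets overlapped between the groups, and the mean signal of each was below the array medians of 17.1 to 18.3. The filter passed probe sets above a signal of about 16.4. The dimmest tested member was Map2 1421328_at with a mean of 49.4, well above the filter. Just below the filter were Map1b 1421850_at and Nefl 1426255_at at 16.2 and 16.1.

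**Figure D4:**
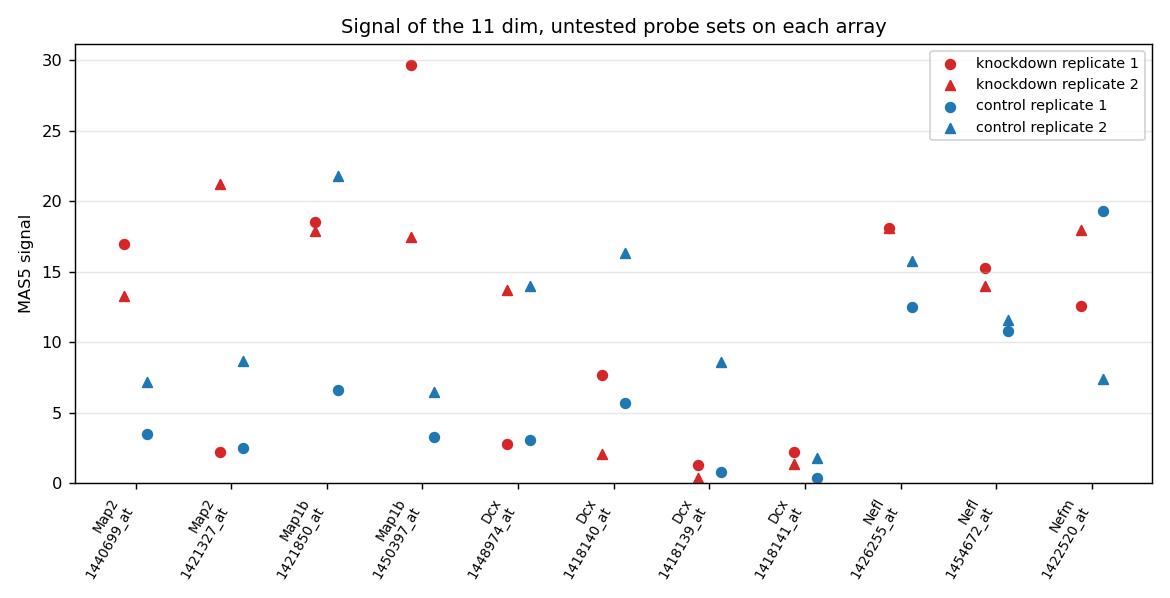
Signal of the 11 member probe sets below the filter on the 4 arrays (linear axis from 0), with knockdown in red, control in blue, circles for replicate 1 and triangles for replicate 2. None exceeds 29.7, and the groups are apart only for Map2 1440699_at, Map1b 1450397_at and the 2 Nefl probe sets.

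Related genes were described by lists chosen for their roles, and the 3 brightest genes of each are named whatever their difference. All counts of the lists stand beside 9.73% higher and 25.8% lower over all tested probe sets. Among other intermediate filament genes 4 of 22 tested probe sets rose and 4 fell, with a median difference of 0.0035. Quantile scaling gave 5 higher and 1 lower, and spike-in scaling 3 and 7. Vim, the vimentin of undifferentiated and mesenchymal cells, read 4912.3 and 4958.1 in the knockdown against 3708.3 and 3720.4 in the control at its brightest probe set, and rose by 0.41 ± 0.05 (adjusted p = 1.78e-05, limma). Nefh, the heavy neurofilament chain, read 742.2 and 763.2 against 554.5 and 683.2. It rose by 0.28 ± 0.09 (adjusted p = 0.0302, limma), and it lost the call with spike-in scaling (0.17), with no filter, with no intensity trend, and without knockdown replicate 1, knockdown replicate 2 or control replicate 1 (0.30, 0.26 and 0.14). Prph, the peripherin of peripheral neurons, was at 0.09 ± 0.04 and did not pass (adjusted p = 0.102, limma), and at -0.02 with spike-in scaling. Its dimmer probe set 1420256_x_at, singled out after its value was seen, was lower at -0.38.

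Of 22 tested probe sets of other tubulin genes 2 rose and 3 fell, with a median of -0.06. The alpha tubulin gene Tuba1a was at 0.01 ± 0.05, and at -0.10 with spike-in scaling. Tubb4b, a widely expressed beta tubulin, fell by 0.35 ± 0.06 (adjusted p = 0.000336, limma), and missed the threshold with no intensity trend (adjusted p = 0.0573, limma). Tubb5, another beta tubulin, was at -0.13 ± 0.05 at its brightest probe set (adjusted p = 0.0541, limma) and at 0.40 ± 0.08 (adjusted p = 0.00166, limma) at 1455719_at, which was singled out after its value was seen. Quantile scaling gave 3 higher and 1 lower tubulin probe sets, spike-in scaling 1 and 6.

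Among 11 tested probe sets of stathmin and doublecortin relatives 1 rose and 2 fell (median -0.07). Stmn1, the stathmin of dividing cells, was at -0.07 ± 0.04 (0.06 after centring on the tested probe sets), Stmn4 at -0.21 ± 0.13, and Dclk1, a doublecortin-like kinase, at 0.41 ± 0.16, and none of them passed at the brightest probe set. The 3 called probe sets all belonged to Dclk1, singled out after the values were seen, with differences of 0.63, -0.53 and -0.81. These calls were not stable. With no filter the list had none, without knockdown replicate 1 it had 0 lower, and without knockdown replicate 2 or control replicate 2 it had 0 higher.

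Genes of tubulin folding and modification had a median of -0.30, with 4 of 45 tested probe sets higher and 19 lower. Tbca and Tbcb, cofactors that fold tubulin, fell by 0.36 ± 0.05 and 0.62 ± 0.08 on the log2 scale (adjusted p = 7.24e-05 and 3.46e-05, limma), while Ttll1, a tubulin polyglutamylase subunit, rose by 0.28 ± 0.10 (adjusted p = 0.0392, limma). The Ttll1 call was lost with spike-in scaling (0.17), with no filter, with no intensity trend, without control replicate 2 (0.18) and without knockdown replicate 2 (0.14). That of Tbca missed the threshold with no intensity trend (adjusted p = 0.0530, limma). Kinases and phosphatases that act on tau and related proteins had a median of -0.27, with 5 of 74 higher and 32 lower. The protein phosphatase subunit Ppp2ca rose by 0.17 ± 0.05, and the scaffold subunit Ppp2r1a and the ubiquitin ligase Stub1 fell by 0.28 ± 0.05 and 0.32 ± 0.06 on the log2 scale. Ppp2ca lost its call with spike-in scaling (0.061), with no filter, with no intensity trend, and without knockdown replicate 2 or control replicate 2 (0.14 and 0.15). Stub1 lost it with quantile scaling (-0.14), and both Stub1 and Ppp2r1a with no intensity trend (adjusted p = 0.0848 and 0.0853, limma). Quantile scaling gave 6 higher and 15 lower in the folding list, and 9 and 25 in the kinase list. Spike-in scaling gave 0 higher and 23 lower in the first, and 4 and 37 in the second.

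Other microtubule-associated and severing proteins had a median of -0.02, with 6 of 61 tested probe sets higher and 13 lower. The autophagy and microtubule protein Map1lc3b (0.09 ± 0.06) and Jpt1 (-0.10 ± 0.06) did not pass at their brightest probe sets, and their signs turned with spike-in scaling (-0.02) and quantile scaling (0.07) respectively. Other Jpt1 probe sets, singled out after their values were seen, were called in opposite directions, at -0.46 for 1448180_a_at and 0.77 for 1438988_x_at. Ssna1 fell by 0.26 ± 0.06 on the log2 scale. It lost the call with quantile scaling (-0.09), with centring on the tested probe sets (-0.13) and with no intensity trend (adjusted p = 0.107, limma). This list went to 16 higher and 6 lower with quantile scaling, and to 2 higher and 18 lower with spike-in scaling. Its direction thus depended on the scale, as did that of all tested probe sets. Over all of them quantile scaling gave 3816 higher and 3748 lower, and spike-in scaling 1307 and 7751. Among other neuronal structural genes 11 of 48 rose and 7 fell, with a median of 0.09. Basp1, a growth cone protein, rose by 0.47 ± 0.05 (adjusted p = 1.31e-05, limma), and Dpysl3 (0.13 ± 0.06) and Uchl1 (-0.14 ± 0.05) did not pass at their brightest probe sets. Dpysl3 passed as higher with quantile scaling (0.28) and with centring on the tested probe sets (0.27), and Uchl1 as lower with spike-in scaling (-0.25). A dimmer Dpysl3 probe set, 1438789_s_at, singled out after its value was seen, was lower at -0.47. That list had 15 higher and 5 lower with quantile scaling, and 8 and 10 with spike-in scaling.

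**Figure D5:**
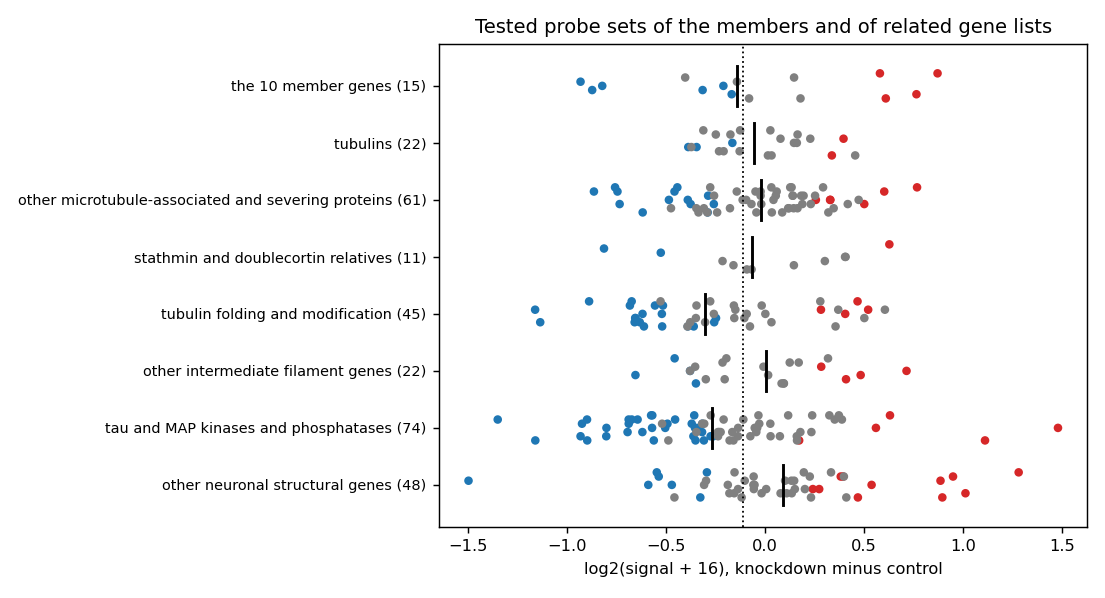
Log2 difference, knockdown minus control, of each tested probe set of the 10 genes and of 7 related lists, with the number of probe sets in parentheses; red marks a rise, blue a fall, grey an adjusted p not under 0.05, black bars the medians and the dotted line the median of all tested probe sets. The folding and kinase lists have medians of -0.30 and -0.27, and the others lie between -0.14 and 0.09.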

How the data were processed

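Per the submitters' processing notes, the authors made the deposited intensities with MAS5, and these are linear brightness values, 1 for each probe set and array. Its version, the scaling target and filters were not given in the sources used here. Per the labels, labelled cRNA came from 200 ng of poly(A)+ RNA. Of 45101 probe sets 64 were controls, 34945 had 1 gene symbol, 932 several and 9160 none. For 34741 the symbol was taken from RefSeq by Entrez identifier, whether or not it differed.

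Values were taken as log2(signal + 16) with no further scaling. The 22519 probe sets whose mean log2 value reached the median were tested, which is a signal of about 16.4. The filter had first used the mean raw signal. It was moved to the log2 scale after results had been seen, and the first version is among the alternatives. limma 3.58.1 in R 4.3.3 was fitted with lmFit and eBayes with an intensity trend (13.6 total degrees of freedom, two-sided), and p-values were adjusted by Benjamini-Hochberg over all tested probe sets. When the fit was tested on simulated data, the share of known changes it recovered depended on the noise model. Recovery was high under a model adopted after another had given very low recovery. The power of the fit here is thus not known.

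Members and gene lists were chosen with earlier results of these data known. All probe sets of the 10 genes are shown, and of each related list the 3 genes with the brightest probe set. The main fit did not pair the arrays by replicate number. The labels do not say whether same-numbered arrays were handled together, and their deviations had a correlation of 0.0017. Alternatives covered pseudocounts, scalings, filters, the variance model, a replicate block, probe set means and each array left out. Plots used matplotlib 3.10.9 under Python 3.11.15.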

Additional observations from a re-analysis of the deposited data

How the results depend on the processing

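Over all alternatives, 198 of 223 values of member probe sets kept their direction and side of the threshold, 15 lost a call, 6 gained one and 4 turned sign. For the named related probe sets it was 263 of 314, with 24, 18 and 9. Map2 1434194_at, Map1b 1421851_at and the 3 called Mapt probe sets kept their calls in all 15 alternatives. Higher member probe sets went from 4 to 2 with no filter and to between 2 and 4 with 1 array left out, the 2 being without knockdown replicate 2. Lower ones went from 6 to 3 with no intensity trend. Quantile scaling and centring on the tested probe sets each gave 6 higher members and 4 lower ones, and spike-in scaling gave 4 higher and 8 lower. Related-list probe sets, 33 higher and 80 lower, went to 56 higher with quantile scaling, 57 with centring on the tested probe sets, 19 with spike-in scaling and 16 with no filter, to 53 lower with no intensity trend, and to between 16 and 26 higher with 1 array left out. With no filter more probe sets were tested, and with 1 array left out fewer arrays were used. The cause of the changed counts was not tested. Signs turned with quantile scaling for Tubb3 (0.11), Stmn3 1460181_at (0.023) and Jpt1 (0.065), with centring on the tested probe sets for Tubb3 (0.052), Tubb5 (0.0040), Jpt1 (0.037) and Stmn1 (0.064), and with spike-in scaling for Tuba1a (-0.10), Map1lc3b (-0.024) and Prph (-0.017). With 1 array left out Tubb3 lay between -0.19 and 0.032 and Tuba1a between -0.069 and 0.10. None of these turned values passed. With the replicate block 4 member probe sets were higher and 6 lower, and 35 and 84 in the related lists. The filter on the mean raw signal, chosen after seeing the data, also gave 4 and 6. Low signal limits what can be said of Dcx, Nefl and Nefm.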
